A study of Mus musculus with 24 samples.

Results

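The 8 genes described here encode J-domain co-chaperones of the DNAJ (HSP40) A and B families: Dnaja1, Dnaja2, Dnaja4, Dnajb1, Dnajb2, Dnajb4, Dnajb5 and Dnajb6. They were chosen by symbol among the 18669 genes of a count table made from mouse quadriceps femoris RNA. All 8 passed the filter on low counts, which 13754 of the 18669 genes passed. In wild type muscle, 4 hours after treatment, a 15 minute heat shock (HS) raised Dnaja1, Dnaja4 and Dnajb1, where 2.06% of all genes tested were called. The HSP90 inhibitor HSP990 raised the same 3 genes and Dnajb4, where 1.85% were called. Dnajb4 was also 2.14-fold higher after HS but missed the threshold (edgeR adjusted p = 0.073). Its responses to the 2 treatments were not called different (edgeR adjusted p = 0.39). Neither treatment gave a call for any of the 8 genes in Hsf1-/- muscle, where few genes were called at all. The share over all genes tested there was 0.00727% for HS and 0.218% for HSP990.

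J-domain proteins bring unfolded client proteins to HSP70 and stimulate its ATPase, which locks the client in place. The A class carries a glycine- and phenylalanine-rich stretch and a zinc finger, whereas the B class lacks the zinc finger. Heat shock factor 1 (HSF1) is held inactive by chaperones, among them HSP90, and on release it binds heat shock elements in promoters of chaperone genes, so both heat and HSP90 inhibition can switch it on.

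The 24 mice fell into 12 groups of 2, and all carried the same CBA x C57BL/6 F1 background. Wild type, R6/2 and Hsf1-/- mice were studied, R6/2 being a Huntington's disease model that carries exon 1 of mutant HTT as a transgene and Hsf1-/- a homozygous knockout. In the HS experiment, mice were held at a body temperature of 41.5 °C for 15 minutes under isoflurane, against controls at 36.9 °C for 21 minutes. In the HSP990 experiment, 12 mg/kg HSP990, suspended in methyl cellulose and saline, was given by oral gavage, against a vehicle labelled as saline alone. Wild type and R6/2 mice were 12 weeks old throughout, whereas the Hsf1-/- mice were 10 weeks old in the HS and 8 weeks old in the HSP990 experiment, so that age and genotype cannot be told apart in comparisons with the knockout.

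Library totals ran from 22450177 to 46599238 counts. Levels are given as CPM, read counts relative to a library's effective size, which is its total times a TMM factor that sets the bulk of genes level between libraries. Hsf1 transcript was present at 52.9 to 68.5 CPM in the 8 wild type mice and 21.1 to 29.0 CPM in the 8 Hsf1-/- mice, lower in every knockout library but not absent, and the sources used here do not give the deleted stretch. The summed level of 8 skeletal muscle fibre markers, all 8 of them measured, ran from 193200 to 258755 CPM in wild type and Hsf1-/- mice and from 45558 to 90226 CPM in R6/2 mice. The TMM factor moved with it, from 1.19 to 1.40 in R6/2 against 0.808 to 0.954 in the other libraries. The 4 Y-linked genes in the table summed to 0 to 4 counts in the wild type and R6/2 mice of the HS experiment and to 3916 counts or more in all other mice, so the sexes matched within each treatment comparison but sex differed between the HS and HSP990 experiments of both genotypes, and between wild type and Hsf1-/- mice of the HS experiment.

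Promoter stretches are shown because heat shock elements are the sequences HSF1 is known to bind; its binding was not measured here. In the RefSeq promoter windows (GRCm38.p6), the 250 bases before each annotated start were searched for 2 inverted heat shock units, GAANNTTC or TTCNNGAA; each form is its own reverse complement, so 1 pass covers both strands. The motif was found before at least 1 start of 4 of the 8 genes, against 3932 of 27025 genes (14.5%) counted the same way. A gene with more annotated starts has more windows in which to match. The 8 genes had 1 to 3 starts each, whereas the 27025 genes had 32851 windows in all, of which 12.8% held a match. Stretches around the matches follow, 5′ to 3′ on the gene's strand, with the matched bases in capitals.
Dnaja1, chr4:40722319-40722376, plus strand: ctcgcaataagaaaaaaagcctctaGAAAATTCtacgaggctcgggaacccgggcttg
Dnaja4, second start, chr9:54699444-54699539, plus strand: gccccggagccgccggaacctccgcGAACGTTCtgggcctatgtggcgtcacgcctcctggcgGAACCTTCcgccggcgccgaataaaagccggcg
Dnajb4, second start, chr3:152193846-152193884, minus strand: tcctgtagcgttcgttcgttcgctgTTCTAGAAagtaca
Dnajb6, chr5:29735827-29735889, plus strand: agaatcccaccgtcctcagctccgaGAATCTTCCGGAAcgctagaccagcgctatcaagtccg
In Dnajb6 the 2 matches overlap into 3 alternating units, an arrangement held by 139 of the 27025 genes (0.514%). No match was present in the windows of Dnaja2, Dnajb1, Dnajb2 and Dnajb5, which says only that these letters are missing within 250 bases of the annotated starts. Of the 4 genes called after HS or HSP990 in wild type mice, Dnaja1, Dnaja4 and Dnajb4 have a match and Dnajb1 has none; Dnajb6, which has one, was called in no comparison.

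Before treatment the 8 transcripts spanned a wide range. As CPM per kilobase of annotated exon (RPKM), the mean of the 4 untreated wild type mice (2 control, 2 vehicle) was highest for Dnaja2 at 124 ± 15.9 RPKM (SD, n = 4), followed by Dnajb5 at 67.5 ± 6.11 RPKM and Dnaja4 at 39.99 ± 9.05 RPKM. Dnajb4 stood at 23.5 ± 4.04 RPKM, Dnajb2 at 13.2 ± 1.91 RPKM and Dnajb1 at 4.10 ± 0.673 RPKM. Dnaja1, at 0.478 ± 0.0746 RPKM, and Dnajb6, at 0.397 ± 0.0398 RPKM, were lowest, and the difference between this pair was close to the SD of Dnaja1, whereas the other neighbours in the order lay further apart than their SDs. The values of the last pair carry a limit on counting: of the coding sequence of Dnaja1, 2 copies elsewhere in the mm9 genome diverged by at most 0.67%, and 5 copies of at least 50% of that of Dnajb6 diverged by at most 1.16%, so short reads from both genes can align elsewhere, whereas no copy within 2% was found for the other 6. The annotated spans of Dnaja1, Dnaja4 and Dnajb6 also overlap protein-coding genes on the opposite strand, Smu1, Wdr61 and Gm5129, by 608, 1581 and 249 bases. How shared or opposite-strand reads were counted is not given in the sources used here.

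**Figure D1:**
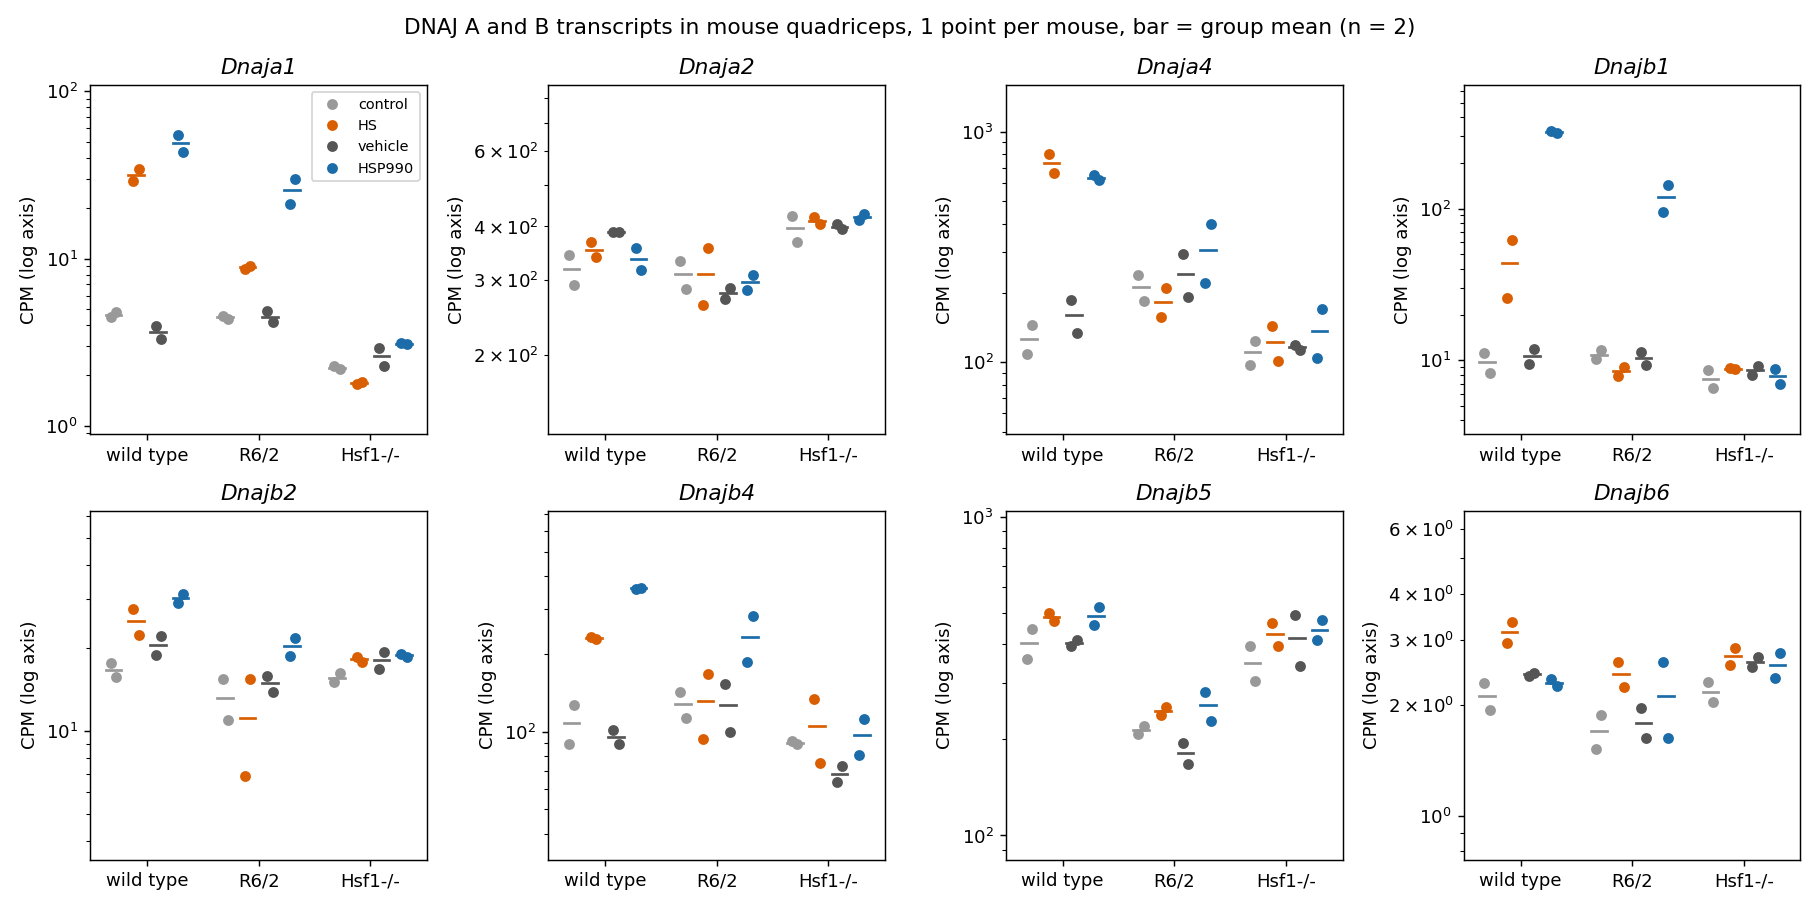
CPM of each gene on a log axis, 1 point per mouse with a bar at the mean of 2, by genotype and treatment. Dnaja1, Dnaja4, Dnajb1 and Dnajb4 stand high after HS and HSP990 in wild type mice, the Hsf1-/- points of each of these 4 genes lie low in all 4 treatments, and Dnajb5 is lower in R6/2 mice.

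HS in wild type mice called 3 of the 8 genes, all higher, where 2.06% of all 13754 genes tested were called in either direction; the median log2 fold change was 0.84 over the 8 and -0.01 over all genes. These bulk values cannot tell more transcript per cell from more cells of a type. Between control and HS mice the summed levels did not overlap for 3 marker lists: red blood cell (3 of 5 markers measured, 23.0 to 30.5 against 37.5 to 76.1 CPM), leukocyte (6 of 6, 63.5 to 79.9 against 60.7 to 62.8 CPM) and muscle fibre (8 of 8, 195970 to 207637 against 211573 to 243252 CPM). The sums of the adipocyte, endothelial, fibroblast and Schwann cell lists overlapped, and the part of any of these cells was not tested. Dnaja1, a cytosolic class A co-chaperone of HSC70 and HSP70 (chr4:40669183-40684182, plus strand, mm9), stood at 4.45 and 4.78 CPM in control and 29.1 and 34.3 CPM in HS mice. Both HS mice were far above both controls, and the rise was 6.86-fold (log2 fold change 2.78 ± 0.188 SE, edgeR quasi-likelihood test, Benjamini-Hochberg adjusted p = 4e-07). Dnaja4, a class A member (chr9:54546680-54564122, plus strand), stood at 109 and 145 CPM in control and 799 and 664 CPM in HS mice. The groups did not overlap, and the rise was 5.78-fold (2.53 ± 0.313, adjusted p = 0.00029). Dnajb1, the major stress-inducible HSP40 that works with HSP70 in refolding and disaggregation (chr8:86132074-86135801, plus strand), stood at 11.2 and 8.17 CPM in control and 25.6 and 61.9 CPM in HS mice. Its 2 HS mice differed from each other more than those of Dnaja1 and Dnaja4, and the rise was 4.53-fold (2.18 ± 0.312, adjusted p = 0.0011). Without wild type HS replicate 2 the log2 fold change was 1.41, and the call held with any 1 of the 4 mice left out (adjusted p at most 0.043).

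Dnajb4, a class B co-chaperone close in sequence to Dnajb1 (chr3:151841475-151873243, minus strand), had 89.3 and 126 CPM in control and 232 and 229 CPM in HS mice. The groups did not overlap, yet at 2.14-fold (1.10 ± 0.301) the difference missed the threshold in edgeR (adjusted p = 0.073). It passed with DESeq2 (adjusted p = 0.0096) and with edgeR fitted to the wild type control and HS groups alone (adjusted p = 0.0076). Dnajb2, which hands ubiquitinated clients to the proteasome (chr1:75233040-75241379, plus strand), went from 17.6 and 15.7 to 27.7 and 22.3 CPM (log2 fold change 0.59 ± 0.258, adjusted p = 0.37). Dnajb6, a suppressor of polyglutamine aggregation in which mutations cause limb-girdle muscular dystrophy (chr5:30062228-30113018, plus strand), went from 2.29 and 1.94 to 2.95 and 3.37 CPM (0.58 ± 0.258, adjusted p = 0.38). For both, the HS mice stood above the controls without passing the test. Dnajb5, a class B member linked to nuclear export of class II histone deacetylases (chr4:42962686-42972297, plus strand), changed by a log2 value of 0.28 ± 0.174 (adjusted p = 0.6), and Dnaja2, a constitutive class A co-chaperone (chr8:88061539-88079170, minus strand), by 0.15 ± 0.135 (adjusted p = 0.75).

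HS in R6/2 mice called none of the 8 with edgeR, where 0.0436% of all genes were called, 6 in number; 1 of the 8 had an unadjusted p under 0.05, and DESeq2 called 1. That gene was Dnaja1, at 4.51 and 4.38 CPM in control and 8.68 and 9.02 CPM in HS mice. The groups were well apart, with a 1.99-fold difference (log2 fold change 0.99 ± 0.178, edgeR adjusted p = 0.053). The call turned on the setting: the adjusted p was 0.0018 with DESeq2, 0.047 in edgeR without the filter on low counts, and 0.023 with R6/2 HS replicate 2 left out, a fit that called 500 of all genes in place of 6 and in which Dnajb2 was also called lower (log2 fold change -0.95, adjusted p = 0.024). Dnajb1 had 10.2 and 11.6 CPM in control and 7.88 and 9.02 CPM in HS mice, with both HS mice below both controls (-0.37 ± 0.302, adjusted p = 0.81). The paper's quantitative PCR, on more mice of this age and muscle, differs for Dnajb1. There HS raised it in both wild type and R6/2 mice, and less in R6/2. Dnaja4 had 239 and 185 CPM in control and 157 and 209.5 CPM in HS mice, and the groups overlapped (-0.21 ± 0.296, adjusted p = 0.9). Dnajb4 ranged from 113 to 143 CPM in control and from 93.9 to 168 CPM in HS mice, overlapping likewise (0.03 ± 0.297, adjusted p = 0.99).

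HS in Hsf1-/- mice called none of the 8 with edgeR, where 0.00727% of all genes, a single gene, were called; none of the 8 had an unadjusted p under 0.05 and DESeq2 called 0. Dnaja1 had 2.27 and 2.17 CPM in control and 1.79 and 1.83 CPM in HS mice, slightly lower after HS (log2 fold change -0.30 ± 0.208, adjusted p = 0.78). Dnajb1 had 8.56 and 6.52 CPM against 8.83 and 8.70 CPM, and Dnaja4 had 97.7 and 124 CPM against 144 and 102 CPM. Neither passed the test, and the 95% intervals of the log2 fold change were -0.45 to 0.88 for Dnajb1 and -0.48 to 0.78 for Dnaja4.

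**Figure D2:**
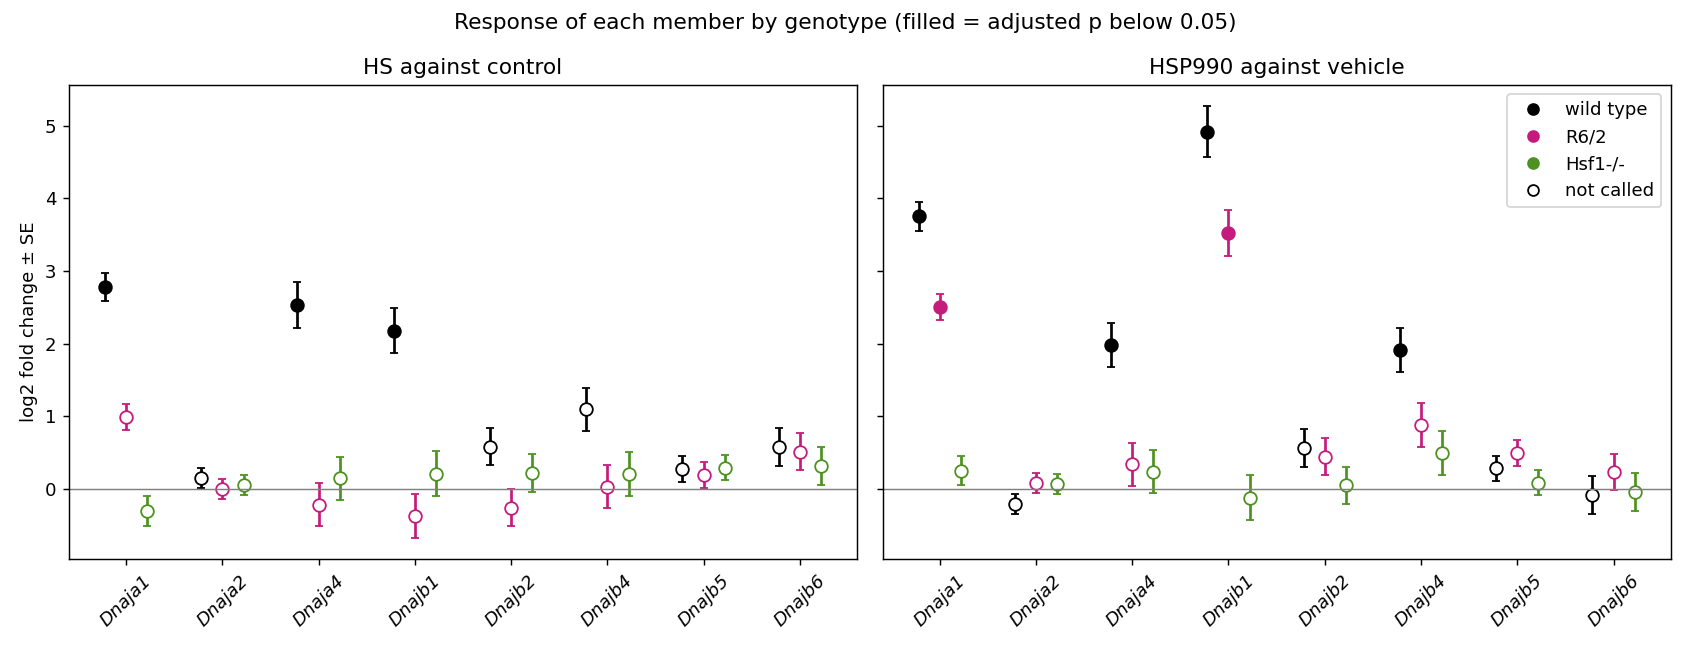
Log2 fold change with its SE for each gene after HS (left) and HSP990 (right), coloured by genotype, filled where the adjusted p was below 0.05. In wild type mice 3 points are filled for HS and 4 for HSP990, where 2.06% and 1.85% of all genes were called. In R6/2 mice 0 and 2 are filled, where 0.0436% and 1.43% of all genes were called. None is filled in Hsf1-/- mice, where 0.00727% and 0.218% of all genes were called.

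HSP990 in wild type mice called 4 of the 8 genes, all higher, against 1.85% of all genes; the median log2 fold change was 1.24 over the 8 and 0.00 over all. Dnajb1 went from 9.40 and 11.8 CPM in vehicle to 327 and 315 CPM in HSP990 mice. The 2 treated mice were nearly alike, and the 30.2-fold rise was the largest of the 8 (log2 fold change 4.92 ± 0.345, adjusted p = 2.7e-07). Dnaja1 went from 3.97 and 3.30 to 54.5 and 43.5 CPM, a rise of 13.5-fold (3.75 ± 0.196, adjusted p = 9.8e-09). Dnaja4 went from 187 and 134 to 651 and 615 CPM, 3.95-fold (1.98 ± 0.307, adjusted p = 0.0016). In both genes the groups were far apart. Dnajb4 went from 101 and 89.2 to 359 and 360.1 CPM, 3.77-fold (1.91 ± 0.307, adjusted p = 0.0023). Without wild type vehicle replicate 2, the calls of Dnaja4 (log2 fold change 1.76, adjusted p = 0.074) and Dnajb4 (1.82, adjusted p = 0.076) were lost. Of the other 4 genes, Dnajb2 went from 18.8 and 22.1 to 29.1 and 31.3 CPM without passing the test (0.56 ± 0.256, adjusted p = 0.35), and Dnajb5 (0.29 ± 0.174, adjusted p = 0.52), Dnaja2 (-0.21 ± 0.135, adjusted p = 0.55) and Dnajb6 (-0.08 ± 0.260, adjusted p = 0.93) moved less.

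Between vehicle and HSP990 mice of wild type, the summed levels of several marker lists did not overlap. Those of adipocyte and red blood cell markers overlapped. The summed level of 6 fibroblast markers, all measured and none at 0 throughout, was 795 to 812 CPM in vehicle and 1298 to 1330 CPM in HSP990 mice, that of 6 endothelial markers 351 to 426 against 511 to 580 CPM, and that of 6 leukocyte markers 46.1 to 50.04 against 74.0 to 106 CPM. In R6/2 mice the fibroblast sums were 922 to 973 in vehicle against 828 to 959 CPM after HSP990, the endothelial sums 360.3 to 391 against 363 to 515 CPM, and the leukocyte sums 64.6 to 91.9 against 53.3 to 57.7 CPM. Muscle fibre sums (8 of 8 markers) were lower after HSP990 in wild type mice, 225786 to 229560 against 209370 to 220427 CPM. They were higher in R6/2 mice, 47573 to 52571 against 53048 to 90226 CPM, with the nearest values of the 2 groups close together. Schwann cell sums (3 of 5 markers) were 120 to 133 against 149 to 162 CPM in wild type mice and overlapped in R6/2 mice. The part of these cells in the calls of either genotype was not tested.

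HSP990 in R6/2 mice called 2 of the 8 genes, both higher, against 1.43% of all genes. Dnajb1 went from 11.4 and 9.33 CPM in vehicle to 94.9 and 143 CPM in HSP990 mice, 11.49-fold (log2 fold change 3.52 ± 0.322, adjusted p = 1.5e-05). Dnaja1 went from 4.83 and 4.16 to 21.3 and 29.8 CPM, 5.68-fold (2.51 ± 0.183, adjusted p = 1.3e-06). In both, the treated mice stood well above the vehicle mice but below the wild type mice given HSP990. With only the R6/2 vehicle and HSP990 groups in the fit, the call of Dnaja1 was lost (2.50, adjusted p = 0.052) and that of Dnajb1 kept. Dnajb4 went from 154 and 99.3 to 187 and 280.3 CPM, 1.85-fold without overlap, and missed the threshold (0.89 ± 0.299, adjusted p = 0.23). Dnajb5 went from 195 and 168 to 282 and 229 CPM (0.50 ± 0.175, adjusted p = 0.27), again without overlap. Dnaja4 had 294 and 192 CPM in vehicle and 220.4 and 396 CPM in HSP990 mice, and these overlapped (0.35 ± 0.296, adjusted p = 0.84).

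HSP990 in Hsf1-/- mice called none of the 8 with edgeR, where 0.218% of all genes were called; none of the 8 had an unadjusted p under 0.05 and DESeq2 called 0. Dnajb1 stood at 8.00 and 9.13 CPM in vehicle and 8.80 and 6.96 CPM in HSP990 mice. Against the 30.2-fold rise in wild type mice, its log2 fold change here was -0.11 ± 0.312, with a 95% interval of -0.77 to 0.54. Dnaja1 stood at 2.92 and 2.28 against 3.13 and 3.07 CPM (0.26 ± 0.196, adjusted p = 0.73). Dnajb4 stood at 63.6 and 73.5 against 81.4 and 112 CPM without overlap (0.49 ± 0.300, adjusted p = 0.65), the largest value of the 8 in this comparison.

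The 2 treatments were then set against each other gene by gene, each response taken against its own controls. In wild type mice 1 of the 8 differed between HS and HSP990, against 2.38% of all genes, and in R6/2 mice 2 of the 8, against 1.63%. For Dnajb1 the HS response was smaller by 2.74 ± 0.430 on the log2 scale in wild type (HS minus HSP990 -2.74, adjusted p = 0.0037) and the difference was -3.89 ± 0.434 in R6/2 mice (adjusted p = 0.00064). For Dnaja1 the difference was -0.97 ± 0.255 in wild type mice (adjusted p = 0.055) and -1.51 ± 0.250 in R6/2 mice (adjusted p = 0.0039). HSP990 moved Dnajb1 more than HS did in both genotypes, and Dnaja1 more in R6/2 mice; in wild type mice Dnaja1 passed with DESeq2 (adjusted p = 0.041) and in edgeR with library-size scaling (-1.16, adjusted p = 0.034), but not with TMM. With only the R6/2 groups in the fit, the R6/2 difference of Dnaja1 was not called (-1.51, adjusted p = 0.095).

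Of the 4 genes called in wild type mice, Dnaja4 alone had a larger value for HS than for HSP990, by 0.55 ± 0.419, which was not called (95% interval -0.34 to 1.43, adjusted p = 0.59). Dnajb4 had a smaller value after HS, by -0.82 ± 0.421 (95% interval -1.71 to 0.07, adjusted p = 0.39). In Hsf1-/- mice 0 of the 8 differed between treatments with edgeR, against 0.145% of all genes, with 0 of the 8 at an unadjusted p under 0.05 and 0 called by DESeq2. The experiments also differed in sex for wild type and R6/2 mice, as given above, and sex and treatment cannot be told apart in these differences.

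**Figure D3:**
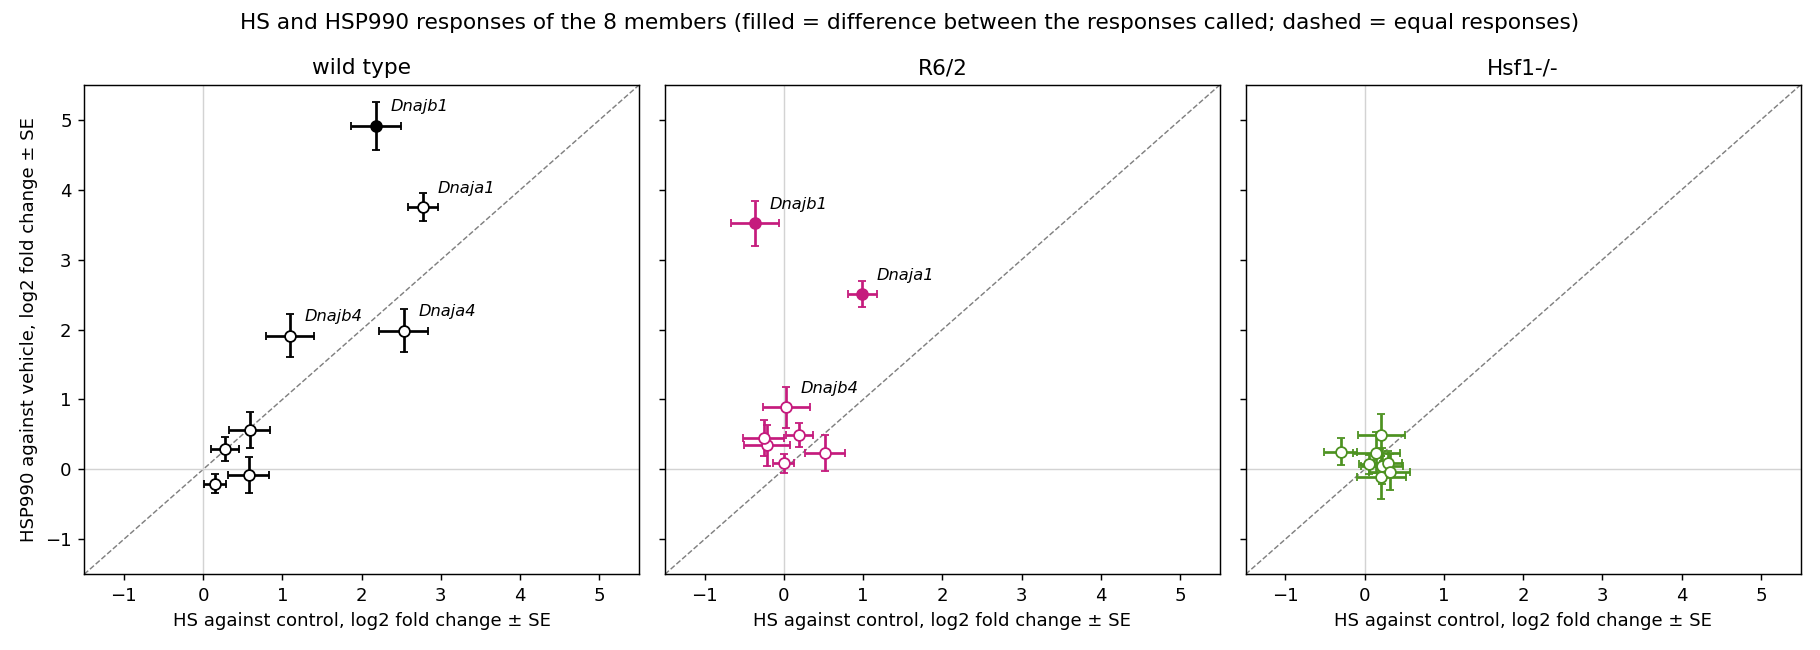
Log2 fold change after HS (x) against that after HSP990 (y), with SE, for the 8 genes in each genotype; filled points differ between treatments at an adjusted p below 0.05, and the dashed line marks equal responses. Dnajb1 lies above the line in wild type and R6/2 mice, Dnaja4 lies below it in wild type mice, and in Hsf1-/- mice all 8 lie near 0 on both axes.

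The difference between genotypes in each response was tested directly. For HS, R6/2 minus wild type, 3 of the 8 were called, all lower, against 0.0727% of all genes. The difference was -1.79 ± 0.253 for Dnaja1 (95% interval -2.32 to -1.25, adjusted p = 0.0094), -2.74 ± 0.426 for Dnaja4 (-3.64 to -1.84, adjusted p = 0.012) and -2.55 ± 0.432 for Dnajb1 (-3.46 to -1.63, adjusted p = 0.027). These intervals lie far from 0, but the calls depended on single mice. All 3 calls, in the order Dnaja1, Dnaja4 and Dnajb1, were lost when any of 4 mice was left out: wild type control replicate 1 (adjusted p = 0.081, 0.14 and 0.086), wild type control replicate 2 (0.073, 0.073 and 0.27), R6/2 control replicate 1 (0.066, 0.083 and 0.083) or R6/2 HS replicate 1 (0.066, 0.14 and 0.22). The Dnaja4 call was also lost without wild type HS replicate 1 (0.068), and the Dnajb1 call without wild type HS replicate 2 (difference -1.77, 0.072) or R6/2 control replicate 2 (0.078). In the 4 fits that lost all 3 calls, calls over all genes also fell, from 10 with every mouse in the fit. The differences themselves stayed between -1.90 and -1.66 for Dnaja1 and between -2.97 and -2.55 for Dnaja4 with any 1 of the 8 mice left out. Without R6/2 HS replicate 2, Dnajb2 was called as well (-1.53, adjusted p = 0.014). With all mice, Dnajb2 differed by -0.84 ± 0.364 (95% interval -1.61 to -0.07, adjusted p = 0.99). Dnajb4 differed by -1.06 ± 0.421 (adjusted p = 0.99), and Dnaja2, Dnajb5 and Dnajb6 by -0.15, -0.08 and -0.06.

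For HSP990, R6/2 minus wild type, edgeR called 0 of the 8 and 0% of all genes. Unadjusted p-values were under 0.05 for 4 of the 8 and for 981 of all genes, and DESeq2 called 2 of the 8 and 47 of all genes. The 4 were Dnaja1 (-1.25 ± 0.252, edgeR adjusted p = 0.3), Dnaja4 (-1.64 ± 0.421, adjusted p = 0.35), Dnajb1 (-1.40 ± 0.420, adjusted p = 0.47) and Dnajb4 (-1.03 ± 0.421, adjusted p = 0.63), each with a smaller value in R6/2 mice and a 95% interval below 0. DESeq2 called Dnaja1 (adjusted p = 0.022) and Dnaja4 (adjusted p = 0.034). For Dnajb1, the paper's quantitative PCR on more mice of this age and muscle reported a smaller induction by HSP990 in R6/2 mice.

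For HS, Hsf1-/- minus wild type, 2 of the 8 were called, both lower, against 0.16% of all genes; sex, age and genotype cannot be told apart here. Dnaja1 differed by -3.08 ± 0.278 (adjusted p = 5.2e-05), a call kept with each of the 8 mice left out in turn. Dnaja4 differed by -2.38 ± 0.425 (adjusted p = 0.029), and this call was lost without any 1 of the 8 mice: the adjusted p was 0.24 and 0.083 without wild type control replicates 1 and 2, 0.13 and 0.065 without wild type HS replicates 1 and 2, 0.063 and 0.18 without Hsf1-/- control replicates 1 and 2, and 0.058 and 0.23 without Hsf1-/- HS replicates 1 and 2. Dnajb1 differed by -1.97 ± 0.439 and was not called (adjusted p = 0.15), and its value turned on the HS mice. Without wild type HS replicate 1, the lower of the pair, the difference was -2.47 and called (adjusted p = 0.0029), and without replicate 2 it was -1.19 and not called; with any other mouse left out it was not called, with adjusted p-values up to 0.81 over these fits. DESeq2 called it with all mice (adjusted p = 0.0027). Age and genotype cannot be told apart for HSP990, Hsf1-/- minus wild type, either. There 2 of the 8 were called, both lower, against 0.422% of all genes. They were Dnajb1 (-5.03 ± 0.450, adjusted p = 1.1e-05) and Dnaja1 (-3.50 ± 0.271, adjusted p = 2.4e-06), and both calls held with each of the 8 mice left out. Dnaja4 differed by -1.74 ± 0.422 (adjusted p = 0.13, or 0.0085 with DESeq2) and Dnajb4 by -1.42 ± 0.424 (adjusted p = 0.31).

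**Figure D4:**
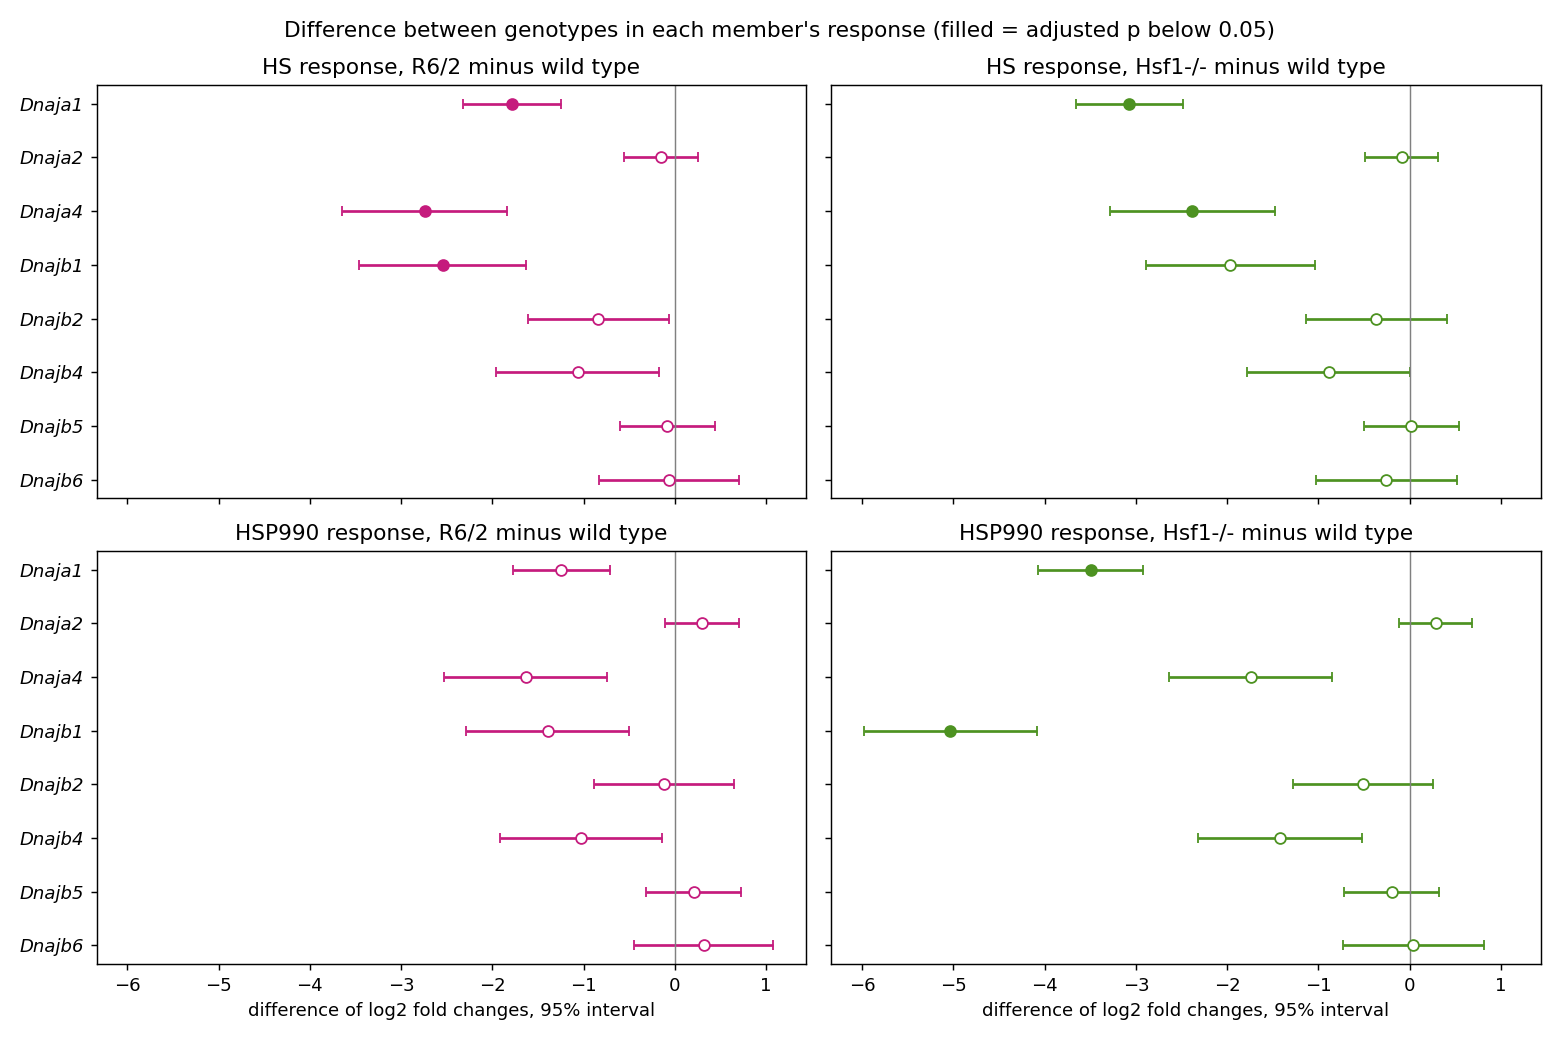
Difference between genotypes in each gene's log2 fold change with its 95% interval, for HS (top) and HSP990 (bottom), R6/2 (left) or Hsf1-/- (right) minus wild type; filled where the adjusted p was below 0.05. The points of Dnaja1, Dnaja4, Dnajb1, Dnajb2 and Dnajb4 lie left of 0 in all 4 panels, Dnajb2 being called in none. Those of Dnaja2, Dnajb5 and Dnajb6 run from -0.26 to 0.31.

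Untreated R6/2 mice differed from wild type mice (4 against 4) in 3 of the 8, 1 higher and 2 lower, against 30.5% of all genes, so a share of 3 in 8 is close to the background. Dnajb5 had 356, 444, 393 and 409 CPM in the 4 wild type and 208, 221, 195 and 168 CPM in the 4 R6/2 mice. All R6/2 values lay below all wild type values, 0.493-fold (log2 fold change -1.02 ± 0.124, adjusted p = 1.7e-05), and the call held in each of the 9 alternative settings and with each mouse left out, at values from -1.14 to -0.41 over the settings; the muscle fibre markers were lower in the same mice, as given above, and their part was not tested. Dnaja4 had 109, 145, 187 and 134 CPM in wild type and 239, 185, 294 and 192 CPM in R6/2 mice, a small overlap (0.67 ± 0.210, adjusted p = 0.023), and the call was lost without wild type control replicate 1 (0.57, adjusted p = 0.095), wild type vehicle replicate 2 (0.56, 0.096), R6/2 control replicate 1 (0.57, 0.092) or R6/2 vehicle replicate 1 (0.50, 0.11). Dnaja2 was lower by the narrowest margin (-0.26 ± 0.0952, adjusted p = 0.0499). It was called in 4 of 9 alternative settings, in 1 of them as higher, and in 2 of 8 fits with a mouse left out, missing the threshold without wild type control replicate 1 (adjusted p = 0.19), either wild type vehicle mouse (0.1 for each), R6/2 control replicate 2 (0.15), or R6/2 vehicle replicate 1 (0.13) or 2 (0.075). With control groups alone its value was -0.04 (adjusted p = 0.89), and it turned higher with library-size scaling (0.35, adjusted p = 0.0045), under which the median over all genes was 0.66 in place of 0.05. That scaling also took Dnajb5 to -0.41 and called Dnaja1, Dnajb1 and Dnajb4 higher.

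Untreated Hsf1-/- mice differed from wild type mice in 1 of the 8, against 0.974% of all genes. Dnaja1 had 4.45, 4.78, 3.97 and 3.30 CPM in the wild type and 2.27, 2.17, 2.92 and 2.28 CPM in the Hsf1-/- mice. All knockout values lay below all wild type values, 0.587-fold (log2 fold change -0.77 ± 0.139, adjusted p = 0.014). The call was lost without wild type control replicate 2 (adjusted p = 0.08), wild type vehicle replicate 1 (0.083), Hsf1-/- control replicate 1 (0.056), Hsf1-/- control replicate 2 (0.06) or Hsf1-/- vehicle replicate 2 (0.074), with values from -0.86 to -0.68. In the HS experiment the wild type and Hsf1-/- controls also differed in sex, and in the vehicle groups, alike in sex, the difference was -0.48 (adjusted p = 0.47). The other 7 were not called, with values from -0.36 for Dnajb4 to 0.18 for Dnaja2, Dnajb1 (-0.33 ± 0.221) and Dnaja4 (-0.33 ± 0.210) among them.

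Across all 24 mice, Dnaja2 ranged from 262 to 429 CPM, a narrow band beside Dnajb1 at 6.52 to 327 CPM and Dnaja1 at 1.79 to 54.5 CPM. Dnaja4 ran from 97.7 to 799 CPM and Dnajb4 from 63.6 to 360.1 CPM. Dnajb2 ran from 6.85 to 31.3 CPM, with its lowest value in R6/2 HS replicate 1 and its highest in a wild type HSP990 mouse, and Dnajb5 from 168 to 522 CPM. Dnajb6 ran from 1.52 to 3.37 CPM, which rest on 43 to 114 counts a library, and for HSP990 in wild type mice the 95% interval of its log2 fold change was -0.63 to 0.47.

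The 4 genes called in wild type mice were compared over the group means; since they were called for their rises in the same groups, high correlations follow in part from that choice. Over the 12 groups, Pearson's r of log2(CPM + 0.5) was 0.952 between Dnaja1 and Dnajb4, 0.927 between Dnajb1 and Dnajb4, 0.922 between Dnaja1 and Dnaja4, 0.920 between Dnaja4 and Dnajb4, 0.902 between Dnaja1 and Dnajb1 and 0.812 between Dnaja4 and Dnajb1, a description of 12 points that share libraries and scaling. Dnajb5 and Dnajb6 had an r of 0.774 with each other and at most 0.197 with any of these 4. Among 11118 other genes, the 3 most alike to Dnaja1 were Hspb1 (0.982), a small heat shock protein, Hsp90aa1 (0.982), the stress-inducible HSP90, and Hspa1a (0.979), the stress-inducible HSP70. For Dnajb1 they were Atad2 (0.989), Ccdc117 (0.973) and Dedd2 (0.973). For Dnaja4 they were Mboat7 (0.957), Bag3 (0.949), an HSP70 nucleotide exchange factor of muscle Z-discs, and Actr5 (0.939), and for Dnajb4 Tmem33 (0.977), Bag3 (0.966) and Mboat7 (0.964). The most alike genes of Dnajb5 included Mrps36 (0.985) and Mrpl34 (0.976), both named as mitochondrial ribosomal proteins, with Wfdc1 (0.966). Those of Dnaja2 were Blzf1 (0.957), Ltv1 (0.954) and Ube2k (0.953), those of Dnajb2 Ears2 (0.905), Gamt (0.902) and Ift140 (0.898), and those of Dnajb6 Slc35a4 (0.948), Nr4a1 (0.940) and Tmc8 (0.937).

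Other genes with a J domain gave no call with edgeR in any of the 6 treatment comparisons, where 0.00727% to 2.06% of all genes were called. Of 9 further DNAJ A and B genes, 4 passed the filter: Dnaja3, which is mitochondrial, Dnajb9 and Dnajb11, which reside in the endoplasmic reticulum, and Dnajb12, which sits in its membrane. Of 32 DNAJ C genes 27 passed. In single treatment comparisons 0 to 2 of the 4 and 0 to 4 of the 27 had an unadjusted p under 0.05, and DESeq2 called 1 of the 4, after HSP990 in wild type mice, and none of the 27. Dnajb9 had the largest value of the 4 after HS in wild type mice (log2 fold change 0.57 ± 0.220, adjusted p = 0.27), and Dnajb12 responded differently to the 2 treatments there (HS minus HSP990 0.51 ± 0.129, adjusted p = 0.049). In untreated R6/2 mice Dnaja3 (-0.87 ± 0.0670, adjusted p = 3.7e-07) and Dnajb9 (-0.57 ± 0.155, adjusted p = 0.01) were lower, and of the 27 DNAJ C genes 5 were higher and 3 lower, a share near the 30.5% of all genes called in that comparison. These 8 included Dnajc15 (-0.88, adjusted p = 3.9e-05) and Dnajc19 (-0.74, adjusted p = 4.6e-05), both of the mitochondrial import motor, Dnajc14 (0.53, adjusted p = 0.00057), and Dnajc6, which had 0 or 1 count in each of the 4 wild type and 6 to 22 counts in each of the 4 R6/2 mice.

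The HSP70 cycle that the 8 genes serve was counted next. Of 18 HSP70 chaperones, exchange factors and partners tested, HS raised 8 in wild type, 2 in R6/2 and 0 in Hsf1-/- mice, and HSP990 raised 8, 7 and 0. Over all genes, in the same order, 2.06%, 0.0436% and 0.00727% were called for HS, and 1.85%, 1.43% and 0.218% for HSP990. In Hsf1-/- mice 0 of the 18 had an unadjusted p under 0.05 and DESeq2 called 0 after either treatment. Hspa1b rose in wild type mice by a log2 value of 7.97 ± 0.595 after HS (adjusted p = 1.2e-06) and 7.31 ± 0.566 after HSP990 (adjusted p = 7.8e-07), and in R6/2 mice by 4.39 ± 0.502 (adjusted p = 0.0011) and 6.97 ± 0.560 (adjusted p = 2.7e-06); Hspa1a, its near-identical neighbour, can share reads with it. Bag3 rose by 2.19 ± 0.177 after HS in wild type mice (adjusted p = 2.7e-06), and its HS response was smaller in R6/2 mice (-1.70 ± 0.241, adjusted p = 0.0094), as was that of Hspa1l (-2.03 ± 0.296, adjusted p = 0.0094). Hspa4l, an HSP110 exchange factor, had, like Dnajb1, a smaller HS than HSP990 response in wild type (-1.34 ± 0.275, adjusted p = 0.015) and R6/2 mice (-1.92 ± 0.274, adjusted p = 0.0019). In untreated Hsf1-/- mice 7 of the 18 were called, all lower, against 0.974% of all genes. Among them were Hsph1 (-1.19 ± 0.130, adjusted p = 0.00012) and Hspa4l (-1.02 ± 0.144, adjusted p = 0.0022).

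**Figure D5:**
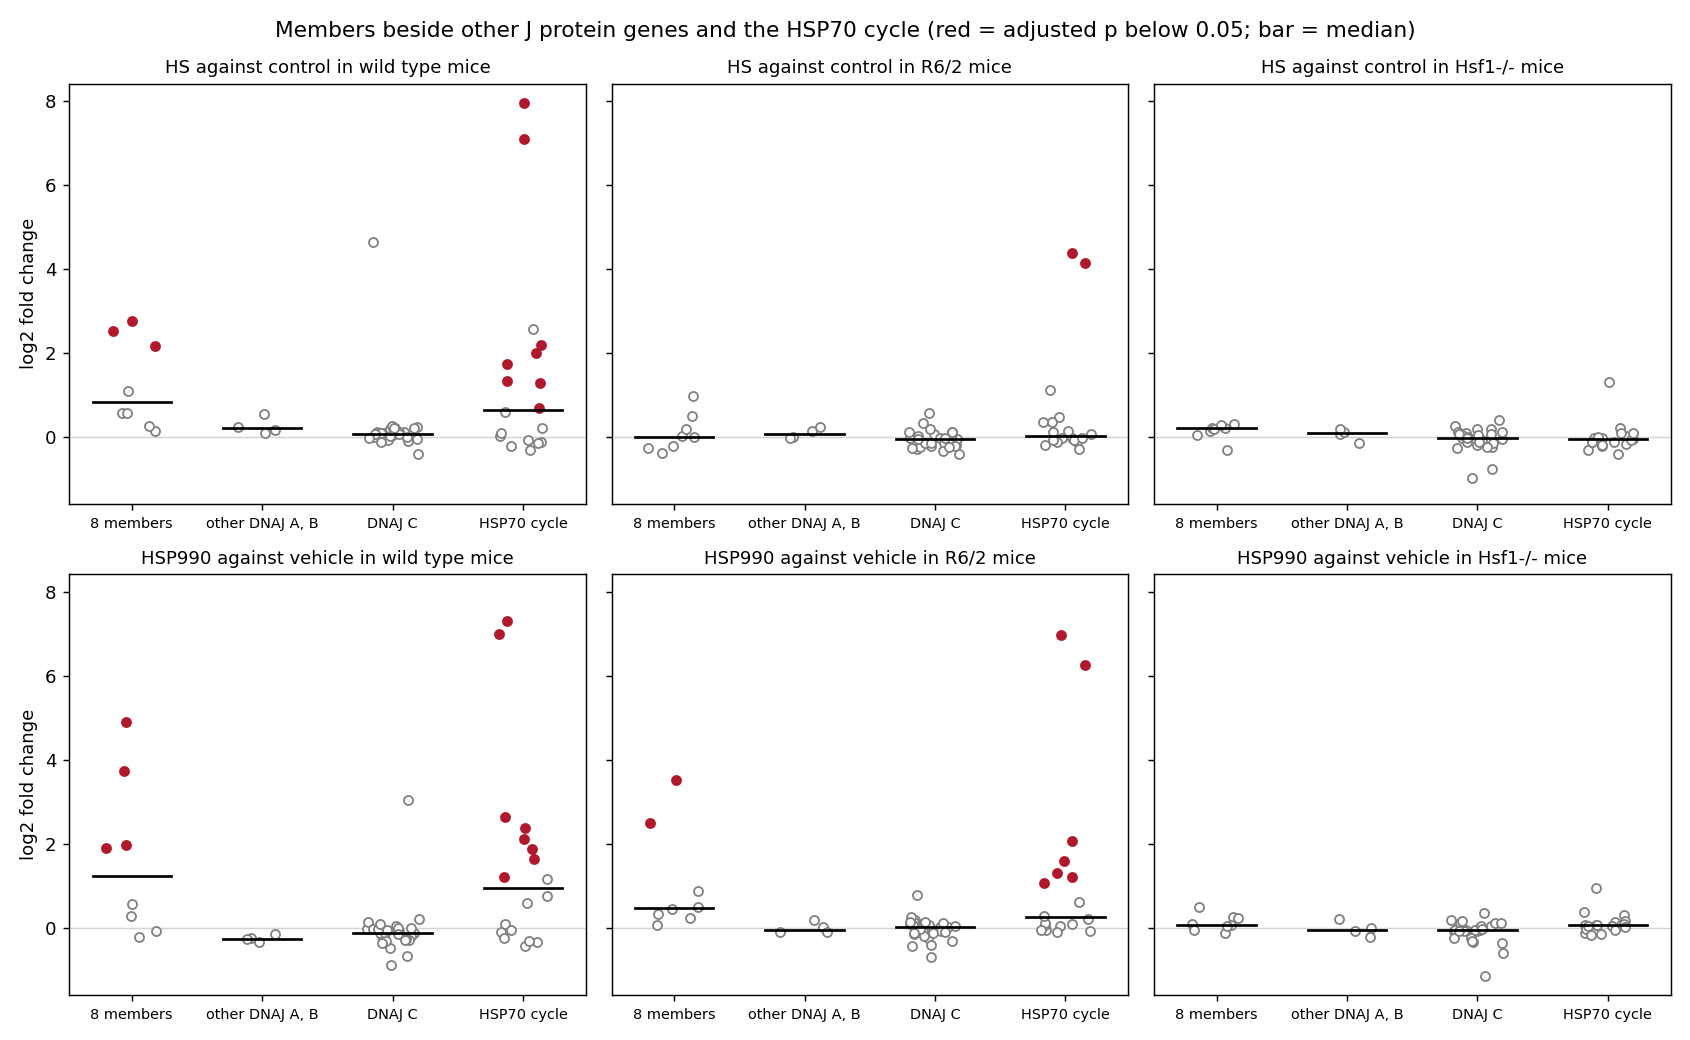
Log2 fold change of the 8 genes, 4 other DNAJ A and B genes, 27 DNAJ C genes and 18 genes of the HSP70 cycle in the 6 treatment comparisons; red points had an adjusted p below 0.05 and bars are medians. No red point falls among the other J-domain genes, where 0.00727% to 2.06% of all genes were called. The high open DNAJ C point in the 2 wild type panels is Dnajc6, which had 8 counts or fewer in every wild type library.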

How the data were processed

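The authors sequenced polyadenylated RNA from quadriceps femoris as strand-specific paired-end libraries, mapped the reads to mm9 with Bowtie and deposited 1 table of raw counts per gene for the 24 mice. The counting program, annotation and strand setting are not given in the sources used here. From the deposited counts, a gene was kept if 10 or more libraries held 2 or more counts of it, TMM factors were computed, and 1 quasi-likelihood model with a mean for each of the 12 groups was fitted (R 4.3.3, edgeR 4.0.16, limma 3.58.1). From it came 15 comparisons: 6 treatment effects, 4 differences of an effect between genotypes, 3 between treatments and 2 of untreated mice. P-values were adjusted by Benjamini-Hochberg over all 13754 genes, and an adjusted p below 0.05 counted as called. The ± after a log2 fold change is its SE, the size divided by the square root of the F statistic, and intervals are 95%. Each gene's spread between mice was estimated over all 12 groups together, so p-values do not measure the spread of the compared mice alone. The 2 mice of a group differed by unequal amounts. Chi-square per degree of freedom between them was 22.7 to 31.47 in wild type, 52.39 to 105.7 in R6/2 and 17.96 to 75.14 in Hsf1-/- groups. With 2 mice a group, an exact permutation test of 2 against 2 cannot go below 0.333.

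Gene numbers were matched to symbols for 18594 of 18669. Gene positions and exon lengths came from GENCODE on NCBIM37 (mm9), near-identical copies from alignment of coding sequences with minimap2 2.31-r1302, and promoter windows from RefSeq. The steps were tested on simulated data. The members and gene lists were chosen with earlier results of these data known. Named genes were all members, the other DNAJ A and B genes, up to 4 called genes a list and comparison with the largest change, the 3 genes most alike to each member, and Hsf1. Alternatives were RLE or library-size scaling, other filters, a replicate block, fits of only the groups compared, single control groups, DESeq2 1.42.0, and leaving out each mouse. Same-numbered mice did not deviate together (r from -0.242 to 0.274), so the numbers were not used as pairs.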

Additional observations from a re-analysis of the deposited data

Results flagged for a closer look

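Differences between genotypes in the response to treatment stood out for 3 of the 8 genes, each from a test of the difference itself in edgeR with Benjamini-Hochberg adjustment. For HS, R6/2 minus wild type, they were Dnaja1 (log2 difference -1.79, adjusted p = 0.0094), Dnaja4 (-2.74, adjusted p = 0.012) and Dnajb1 (-2.55, adjusted p = 0.027). For HS, Hsf1-/- minus wild type, they were Dnaja1 (-3.08, adjusted p = 5.2e-05) and Dnaja4 (-2.38, adjusted p = 0.029), and the Dnaja4 call was lost with any 1 of the 8 mice left out (adjusted p from 0.058 to 0.24). For HSP990, Hsf1-/- minus wild type, they were Dnaja1 (-3.50, adjusted p = 2.4e-06) and Dnajb1 (-5.03, adjusted p = 1.1e-05). Age cannot be told apart from the Hsf1-/- genotype in either experiment, nor can sex in the HS experiment. The R6/2 calls were lost without single mice, as given above. Each difference has a smaller response outside wild type mice. Over all genes, in the same order of comparisons, 0.0727%, 0.16% and 0.422% were called. All 10 and all 22 genes called for HS were lower, as were 45 of the 58 called for HSP990, so this direction was not particular to the 8 genes.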

How the results depend on the processing

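The number of the 8 genes called changed by over 1.5 times in the following cases. HS in R6/2 mice gave 1 in place of 0 without a filter and with DESeq2, which called 128 genes in all against 6. With only the groups compared, HSP990 in R6/2 mice gave 1 in place of 2, the HS difference between R6/2 and wild type 0 in place of 3, the difference between treatments in R6/2 mice 1 in place of 2, and untreated Hsf1-/- mice 0 in place of 1. DESeq2 gave 2 in place of 0 for the HSP990 difference between R6/2 and wild type. DESeq2 and library-size scaling each gave 2 in place of 1 for the difference between treatments in wild type mice, and that scaling moved the median of all genes there to -0.208. Untreated R6/2 mice gave 6 with library-size scaling and 1 with control groups alone, in place of 3, and untreated Hsf1-/- mice 0 with vehicle groups alone. Dnaja2 reversed in untreated R6/2 mice with library-size scaling (0.35, adjusted p = 0.0045), where 8455 of 8876 calls were higher, against 2075 of 4194 with TMM. Smaller shifts were 4 in place of 3 for HS in wild type mice and 3 in place of 2 for both Hsf1-/- minus wild type differences with DESeq2, and 2 in place of 3 for the HS difference between R6/2 and wild type with library-size scaling, which lost Dnajb1 (-2.53, adjusted p = 0.054). The cause was not tested in any of these.

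With each mouse left out in turn, the counts ran from 3 to 3 for HS and 2 to 4 for HSP990 in wild type mice, 0 to 2 and 2 to 2 in R6/2 mice, and 0 to 0 for both in Hsf1-/- mice. For HS they ran from 0 to 4 for R6/2 minus wild type and 1 to 2 for Hsf1-/- minus wild type, and for HSP990 from 0 to 0 and 2 to 2. Differences between treatments gave 1 to 1 in wild type, 2 to 3 in R6/2 and 0 to 0 in Hsf1-/- mice, and untreated mice 1 to 3 for R6/2 and 0 to 1 for Hsf1-/-. Calls over all genes moved too, from 3 to 500 for HS in R6/2 mice, where the 2 calls among the 8 came from the fit with 500, and from 40 to 123 for HS in wild type mice. A group left with 1 mouse was taken to vary like the others. With a replicate block the count was 2 in place of 3 in untreated R6/2 mice, where Dnaja2 was not called (-0.26, adjusted p = 0.059), and no other count of the 8 changed. Of single-gene values under the other settings, 843 kept their side of the threshold, 13 gained and 15 lost a call and 1 reversed; with a mouse left out, 723 kept it, 5 gained and 40 lost a call.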
